A study of Vulpes vulpes with 48 samples.

Results

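The 200 genes described here had the largest excess of RNA in the basal forebrain over the prefrontal cortex of aggressive foxes, out of 12695 genes counted in both tissues. They were chosen from the aggressive foxes alone. For each gene, the mean of log2(CPM + 1) over 12 cortex libraries was subtracted from the mean over 12 forebrain libraries, and the 200 largest differences were kept (CPM is counts per 1000000 counts of the library, with no further scaling). A further 394 genes counted only in the forebrain were outside the choice. Brain tissue came from male silver foxes (Vulpes vulpes) of 2 lines, one bred for tame and one for aggressive behaviour, all adults aged 1.5 years. Right prefrontal cortex and right basal forebrain were sampled, 12 of each from each line, and poly(A) RNA was sequenced on an Illumina HiSeq2000. All 24 cortex libraries and 22 forebrain libraries were analysed, 12 aggressive and 10 tame, since tame forebrain ID488 and ID490 were not analysed here. The labels report no treatment and no genetic manipulation, and they do not say which forebrain and cortex samples came from the same fox.

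The basal forebrain lies beneath the frontal lobe. It holds the cholinergic neurons that project to the cortex and take part in arousal and attention, together with GABAergic neurons, and it borders the striatum, whose principal neurons are inhibitory and receive dopamine. The prefrontal cortex is made mostly of glutamatergic projection neurons and local inhibitory interneurons, and it serves the control of behaviour and emotion. A dissected block also carries glia, vessels and passing fibre tracts, so the RNA of a region is a mixture over cell types. In such bulk tissue, fewer cells of a type and less RNA per cell cannot be told apart. The genes are identified by dog Ensembl identifiers, which were not paired with names, so their functions, positions and sequences are not given. For the same reason the dissections could not be checked against marker genes of neurons or glia, and the genes are described by level, region, line and the way they varied together.

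A cortex library held between 6.23 and 17.2 M counts, and a forebrain library between 6.25 and 13.6 M (M stands for 1000000). At these depths the median chosen gene had a mean of 119 counts per aggressive cortex library and 396 per aggressive forebrain library, and the scarcest had 8.67 in the cortex. Several libraries stood apart. In an earlier analysis of these data, tame cortex libraries ID182, ID186, ID187, ID190 and ID191 were shifted from the other cortex libraries across many genes, and tame forebrain ID483 lay apart from the other forebrain libraries. Tests that used the shifted libraries are therefore given with and without them, and the forebrain line comparison with and without ID483. The forebrain spreads, clustering and principal component described later were computed only with ID483. The cortex principal component was computed only with the shifted libraries. The other 7 tame cortex libraries are called unshifted. Nothing in the labels says whether a library came from a separate extraction, so p-values measure the spread between these libraries.

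In the aggressive foxes the differences that chose the genes ran from 1.50 to 5.0 on the log2(CPM + 1) scale, with a median of 1.78. Over all 12695 genes the median difference was 0.17. The median chosen gene had a mean of 39.8 CPM in aggressive forebrain and 9.82 CPM in aggressive cortex. The set spanned rare and abundant RNAs, from 4.19 to 3547 CPM in that forebrain. For 177 of the 200, every aggressive forebrain library exceeded every aggressive cortex library, against 12.4% of all genes; the choice used these libraries, so nothing is read from that share. The boundary was narrow: ENSCAFG00000032700 and ENSCAFG00000013160 were the last inside at 1.4961 and 1.4955, and ENSCAFG00000014943 and ENSCAFG00000012914 the first outside at 1.4937 and 1.4924 on the same scale.

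The largest difference belonged to ENSCAFG00000007063. In aggressive forebrain its lowest, median and highest values were 710, 1020 and 1715 CPM, and in aggressive cortex 19.2, 28.6 and 157 CPM. In tame foxes it stood at 315, 877 and 1350 CPM in the forebrain and 20.7, 31.7 and 169 CPM in the cortex. Forebrain and cortex did not overlap in either line, although 1 cortex library of each line, ID238 and ID182, was several times above the rest of its group. ENSCAFG00000002064 followed, at a far lower level and with cortex values near the detection limit. Its aggressive forebrain libraries held 27.7, 56.7 and 83.4 CPM (lowest, median and highest), against 0.0930, 0.690 and 1.28 CPM in aggressive cortex, where the lowest library had a single count.

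The tame foxes took no part in the choice, and the forebrain excess was measured again in them. Of the 200 genes, 197 (98.5%) were higher in tame forebrain than in tame cortex by edgeR's quasi-likelihood test at a Benjamini-Hochberg adjusted p under 0.05, against 21.5% of all 12658 genes tested. All 200 were tested and all had a log2 ratio above 0 (the log2 fold change fitted by edgeR), with a median of 1.85 where the median of all genes was 0.08. The number was 198 of 200 without the 5 shifted cortex libraries, where 30.4% of all genes were called. It was 199 without cortex libraries ID182 and ID185, where 2743 of all 12634 genes were called higher. On the scale of the choice, the tame differences had a median of 1.86 and ran from 1.04 to 4.86. Every tame forebrain library exceeded every tame cortex library for 138 of the genes (69.0%; 7.92% of all genes), and for 162 (81.0%; 13.0% of all genes) against the 7 unshifted cortex libraries.

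**Figure D1:**
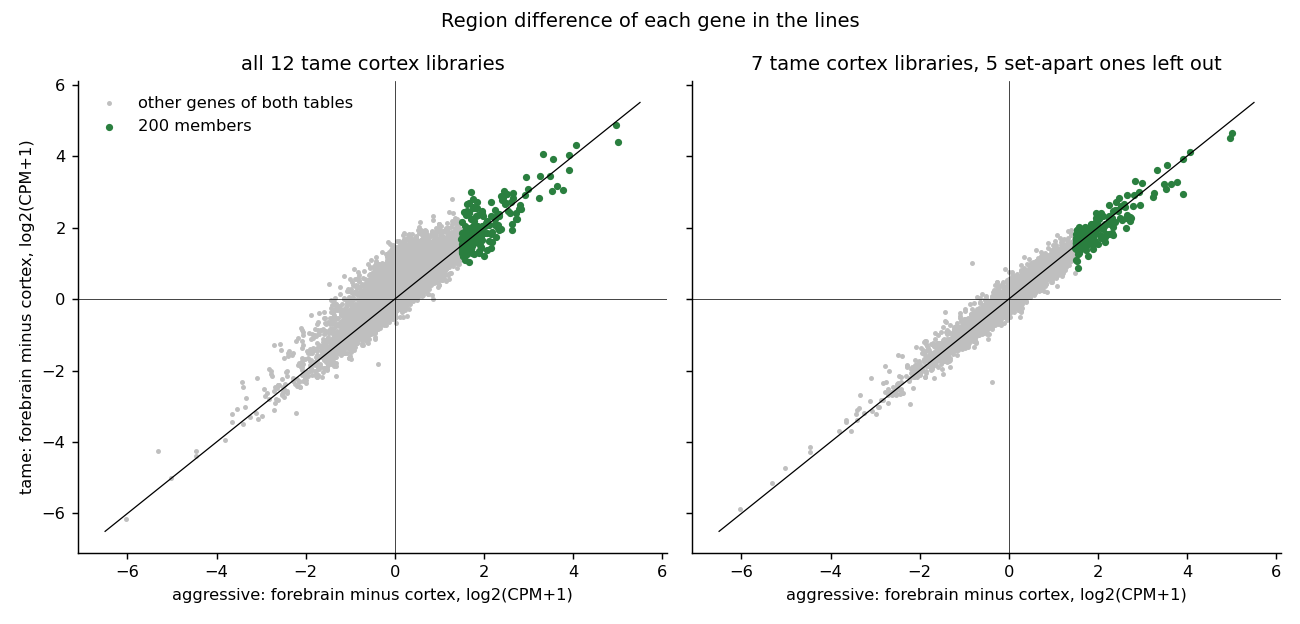
Forebrain minus cortex difference in mean log2(CPM + 1) for each gene, in aggressive foxes (horizontal axis, the values that chose the genes) and in tame foxes (vertical axis), with all 12 tame cortex libraries on the left and the 7 unshifted ones on the right; green points are the 200 genes and the diagonal marks equal differences. All 200 lie above 0 in tame foxes, between 1.04 and 4.86 in the left panel.

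The order of the genes was less stable than their direction. Ranked by the tame difference, 110 of the 200 were again among the 200 largest, and 174 were when the tame cortex mean was taken over the 7 unshifted libraries. The tame difference exceeded the aggressive one for 93 genes, and for 102 with the unshifted libraries. With all libraries, ENSCAFG00000002064 and ENSCAFG00000018785 had the largest tame fold changes; without the shifted libraries ENSCAFG00000007063, at a log2 ratio of 4.68, passed ENSCAFG00000018785, at 4.39. The tame values of ENSCAFG00000002064 were 17.4, 59.4 and 91.2 CPM in the forebrain (lowest, median and highest) and 0.0748, 0.768 and 2.12 CPM in the cortex. The groups were far apart, with a log2 ratio of 5.80 (SE 0.421, edgeR adjusted p = 4.71e-10) and of 5.26 without the shifted libraries. The change for ENSCAFG00000018785 was 4.57 (SE 0.347, edgeR adjusted p = 8.92e-10), with tame forebrain values of 3.86, 50.1 and 102 CPM over tame cortex values of 0.779, 1.74 and 3.26 CPM. The lowest forebrain library, ID541, was still above every tame cortex library.

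The 3 genes that missed the threshold in tame foxes each had a tame cortex library within or above the forebrain range. ENSCAFG00000013368 lay at 289, 350 and 661 CPM in tame forebrain and at 81.1, 125 and 824 CPM in tame cortex (lowest, median and highest). Cortex libraries ID185, at 824 CPM, and ID182, at 384 CPM, overlapped the forebrain, and the log2 ratio was 0.82 (SE 0.352, edgeR adjusted p = 0.0639; 0.0658 without the shifted libraries). ENSCAFG00000001298, a scarce RNA with a tame forebrain median of 7.43 CPM and a tame cortex median of 1.02 CPM, reached 24.0 CPM in the same library ID185 (log2 ratio 1.19, SE 0.570, edgeR adjusted p = 0.0947, and 0.233 without the shifted libraries). For ENSCAFG00000014319 the high cortex library was the shifted ID187. Its tame cortex values were 5.61, 17.9 and 44.4 CPM and its tame forebrain values 25.5, 31.0 and 56.5 CPM. Its log2 ratio was 0.61 with all libraries (SE 0.330, edgeR adjusted p = 0.140) and 1.39 without the shifted ones (adjusted p = 0.000294). Some of its deposited counts were not whole numbers, and whether it shares reads with other copies was not tested. Such counts occurred in 9 of the 200 genes, and 4 had the same values as another gene in every library.

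As a group, the 200 genes took up about the same share of each line's libraries. They held 2.78% ± 0.475 of the counts in aggressive forebrain (SD, n = 12) and 2.81% ± 0.461 in tame forebrain (SD, n = 10), with ranges of 1.94% to 3.73% and 2.02% to 3.72%. In the cortex the shares were 0.718% ± 0.104 in aggressive foxes (SD, n = 12) and 0.758% ± 0.116 in tame foxes (SD, n = 12). The forebrain and cortex ranges did not overlap in either line, while the lines overlapped almost entirely within each region. Over the 7 unshifted tame cortex libraries the share was 0.712% ± 0.0625 (SD, n = 7), and over the 5 shifted ones 0.823% ± 0.148 (SD, n = 5).

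**Figure D2:**
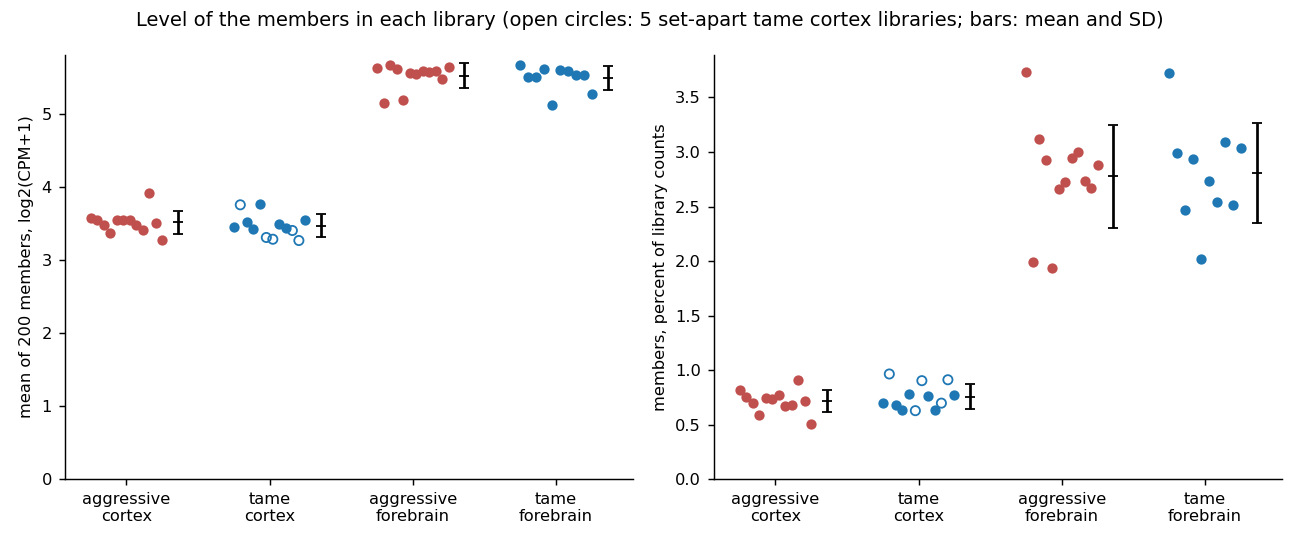
Mean log2(CPM + 1) of the 200 genes (left) and the percent of the library's counts they held (right) in each library, by line and region; points are libraries, open circles the 5 shifted tame cortex libraries, and bars the mean and SD. Forebrain libraries lie between 1.94% and 3.73%, above all cortex libraries, and the lines overlap in each region.

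Single genes of the set varied more between foxes than genes at large. In aggressive forebrain the median SD of log2(CPM + 1) was 0.42 over the 200 genes and 0.19 over all genes. In tame forebrain it was 0.47 and 0.22, in aggressive cortex 0.31 and 0.17, and in the unshifted tame cortex 0.31 and 0.16. With all 12 tame cortex libraries the medians were 0.45 and 0.41, so the spread there was raised across all genes. These SDs were not compared at like abundance. The median gene of the set had 119 counts per aggressive cortex library against 373 over all genes, and in aggressive forebrain 396 against 347. The part of such depth in the spreads was not tested, and the aggressive values also entered the choice. Between shifted and unshifted tame cortex the median change was 0.10 over the 200 genes and -0.17 over all genes, and single members moved by -3.06 to 1.89.

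Between the lines, no forebrain-enriched gene differed in the forebrain itself past the threshold. Line comparisons are not independent of the choice, because the aggressive libraries that chose the genes are also the reference of these tests. By edgeR's quasi-likelihood test, 0 of 200 had an adjusted p under 0.05 (0.0929% of all 12915 genes), and 15 had an unadjusted p under 0.05, which is 7.5% against 11.5% of all genes. Of those 15, 9 were higher in tame foxes (5.74% of all genes were) and 6 lower (5.8% of all genes). In the cortex, 9 of the 15 had an unadjusted p under 0.05 as well, all 9 in the same direction, which is 60% of the forebrain list and 13.2% of the 68 genes of the cortex list. Over all genes the same-direction shares were 38.8% and 12.9%. Without the shifted libraries 2 of the 15 did (13.3%, against 13.1% of all genes). DESeq2 (0.41% of all genes called) and limma-voom with library quality weights (12 of all 12915 genes called) each called 1, the same gene, ENSCAFG00000013160. The median ratio, tame over aggressive on the log2 scale, was 0.03, and 108 of 200 were above 0, where the median of all genes was 0.01. Without ID483 edgeR again called 0, and 6 had an unadjusted p under 0.05 (8.38% of all genes did). Of these, 2 were higher and 4 lower (3.8% and 4.58% of all genes), the opposite balance to that with ID483. Without ID541 there were 17 higher and 8 lower of the 200, where 1035 were higher and 863 lower of all 12936 genes.

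ENSCAFG00000013160 had the smallest adjusted p of the set in both regions, and it was also the last gene admitted by the choice. In the forebrain it stood at 14.5, 20.2 and 32.4 CPM in tame foxes (lowest, median and highest) and 18, 33.4 and 41.2 CPM in aggressive foxes. All 10 tame libraries lay below the aggressive median and 4 lay below every aggressive library. The log2 ratio was -0.59 (SE 0.143, edgeR adjusted p = 0.141; DESeq2 0.0243, limma-voom with weights 0.0248). In the cortex it stood at 2.67, 5.68 and 11.0 CPM in tame foxes and 7.20, 11.3 and 15.3 CPM in aggressive foxes. There 10 of the 12 tame libraries lay below every aggressive library. The log2 ratio was -0.76 (SE 0.161, edgeR adjusted p = 0.0321, limma-voom with weights 0.00653). Without the 5 shifted libraries it was -0.60 with an edgeR adjusted p of 0.181, so the edgeR call was lost. Limma-voom with weights was not run without them. The edgeR call was also lost in 10 of the 24 fits that each left out 1 library: aggressive ID230, ID231, ID235, ID236, ID238, ID239 or ID240, or tame ID182, ID186 or ID190. The difference between regions did not pass the threshold (interaction 0.18 on the log2 scale, edgeR adjusted p = 0.594). With CPM scaled by trimmed means the gene left the set.

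The other forebrain genes with the smallest p-values missed the threshold. ENSCAFG00000018942 ranged over 90.2, 144 and 241 CPM in tame forebrain and 71.3, 104 and 152 CPM in aggressive forebrain (lowest, median and highest). The ranges overlapped, yet 9 of 10 tame libraries exceeded the aggressive median (log2 ratio 0.56, SE 0.161, edgeR adjusted p = 0.234). ENSCAFG00000016771 had medians of 20.3 CPM in tame and 15.8 CPM in aggressive forebrain (0.56, SE 0.182, edgeR adjusted p = 0.290). In the opposite direction, ENSCAFG00000006505 was at 2.14, 3.48 and 5.77 CPM in tame forebrain and 3.04, 6.32 and 9.91 CPM in aggressive forebrain. None of its 10 tame libraries exceeded the aggressive median (-0.73, SE 0.196, edgeR adjusted p = 0.213).

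In the cortex, 195 of the 200 genes were abundant enough to be tested between the lines. Apart from ENSCAFG00000013160, which fell, none passed the threshold (1 of 195; 0.433% of all 12705 genes). At an unadjusted p under 0.05 there were 68, which is 34.9% against 34.6% of all genes. Of these, 54 were higher in tame foxes (27.7% of all genes were) and 14 lower (6.92% of all genes). The median log2 ratio was 0.19, against 0.02 for all genes. Without the 5 shifted libraries edgeR called 0 of 200 (0.235% of all genes), 12 had an unadjusted p under 0.05 (6% against 7.09% of all genes), and the median was -0.01. Of the 12, 8 were higher and 4 lower, against 3.97% and 3.12% of all genes. Of the 68 genes, 8 kept an unadjusted p under 0.05 in the same direction. Over all genes the number under 0.05 fell from 4402 to 906. How many of all genes kept theirs was not counted, so nothing is read from the 8. DESeq2 called 14 with all libraries (5.54% of all genes), 13 of them higher (4.78% of all genes), and gave 12 no adjusted p. On the same libraries limma-voom with weights called 1 (160 of all 12705 genes), and its median log2 ratio was -0.004. At an unadjusted p under 0.05 it gave 8 higher and 11 lower, where 753 of all genes were higher and 632 lower. The balance of higher and lower genes therefore depended on the tool.

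**Figure D3:**
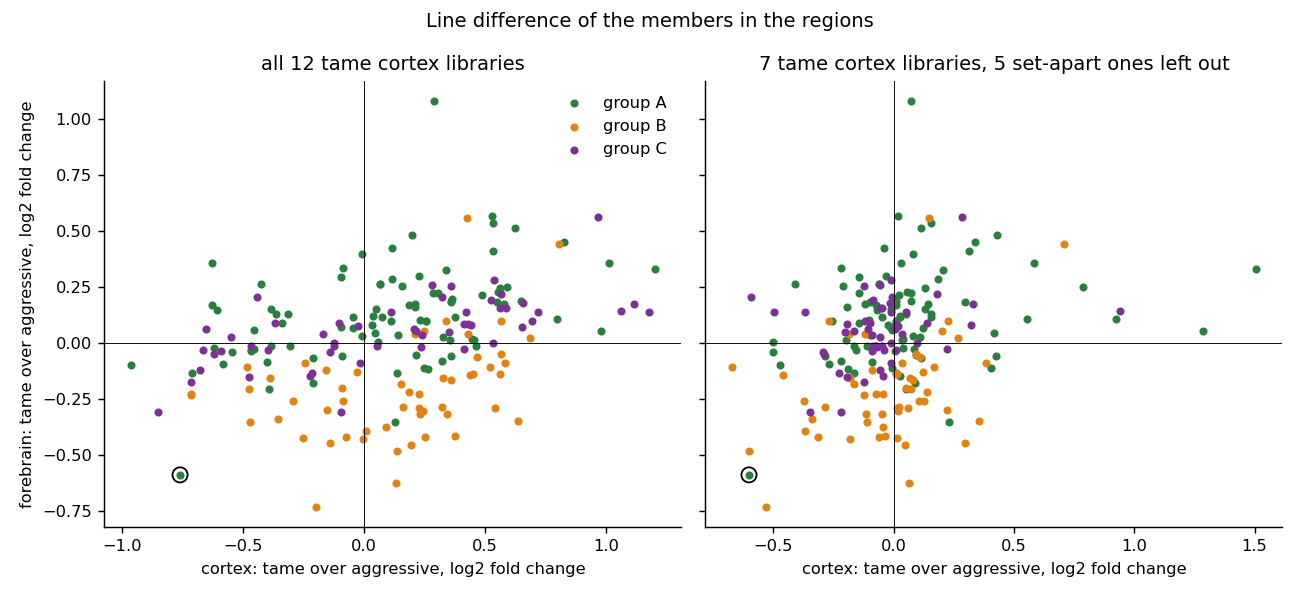
Log2 ratio, tame over aggressive, of each forebrain-enriched gene in the cortex (horizontal axis) and in the forebrain (vertical axis), with all 12 tame cortex libraries on the left and the 7 unshifted ones on the right; colours are the covariation groups A, B and C described later. The forebrain median is 0.03, the cortex median falls from 0.19 on the left to -0.01 on the right, and the circled gene is ENSCAFG00000013160.

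With all libraries the cortex genes next in order did not pass the threshold, and their ratios were nearer to 0 without the shifted libraries. ENSCAFG00000003344 stood at 12.5, 24.4 and 38.5 CPM in tame cortex and 10.8, 13.6 and 22.7 CPM in aggressive cortex (lowest, median and highest). Of its 12 tame libraries, 11 exceeded the aggressive median, with a log2 ratio of 0.82 (SE 0.202, edgeR adjusted p = 0.0657), and the value without the shifted libraries was 0.34. It passed the threshold in 3 of the 24 fits that each left out 1 library, those without tame ID181, ID189 or ID192. ENSCAFG00000018306 had medians of 9.07 CPM in tame and 7.09 CPM in aggressive cortex (0.58, SE 0.160, edgeR adjusted p = 0.0848), and its highest tame library was ID185. On the lower side, ENSCAFG00000005106 was at 11.7, 24.3 and 59.3 CPM in tame cortex and 23.6, 48.5 and 70 CPM in aggressive cortex. Its log2 ratio was -0.62 (SE 0.212, edgeR adjusted p = 0.0900) and -0.29 without the shifted libraries.

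Whether the line difference itself depended on region was tested by the interaction, the forebrain line difference minus the cortex one. By edgeR, 0 of the 200 genes passed (0% of all 12695 genes), with a smallest adjusted p of 0.327. At an unadjusted p under 0.05 there were 20, which is 10% against 14.6% of all genes. Of these, 2 were positive and 18 negative, against 3.58% and 11% of all genes. The aggressive difference between regions, which chose the genes, enters the interaction with a negative sign, so these signs are not independent of the choice. DESeq2 and limma-voom also called 0, but the split at an unadjusted p under 0.05 depended on the tool. DESeq2 gave 4 positive and 24 negative (3.89% and 14% of all genes), limma-voom 22 and 13 (16.9% and 5.58%) and weighted limma-voom 0 and 2 (2.69% and 1.87%), so no direction is read from it. Without the shifted libraries edgeR again called 0, and 4 had an unadjusted p under 0.05 (6.1% of all genes did), 1 positive and 3 negative against 2.91% and 3.19% of all genes. The negative genes with the smallest p were ENSCAFG00000018306 (-0.66, SE 0.214) and ENSCAFG00000019109 (-0.65, SE 0.225), which came to -0.46 and -0.23 without those libraries. The positive ones, ENSCAFG00000006381 (0.99, SE 0.447) and ENSCAFG00000002301 (0.80, SE 0.388), came to 0.34 and 0.25. Both were lowest in tame cortex ID187, where ENSCAFG00000006381 had no count.

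The forebrain-enriched genes did not vary as a single block from fox to fox. When each gene's deviations from its line's mean were correlated over the 22 forebrain libraries, average-linkage clustering into 3 groups gave group A with 93 genes, group B with 55 and group C with 52. The number of groups was chosen after the values were seen, and the groups are a description. Within groups the median pairwise Pearson correlation was 0.461 in A, 0.652 in B and 0.798 in C. It was -0.253 between A and B, 0.113 between A and C and -0.171 between B and C. The value for A and C differed in sign between the lines, at 0.41 over the 12 aggressive libraries and -0.20 over the 10 tame ones. A with B stood at -0.33 in aggressive and -0.18 in tame libraries, and B with C at -0.31 and -0.06. Over the 22 libraries the median was 0.117 for all pairs of the 200 genes, and 0.003 for all genes. All these points share the libraries and their depth.

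The groups differed in abundance and in enrichment. Group C was the most abundant, with a median gene at 91.8 CPM in aggressive forebrain and 25.7 CPM in aggressive cortex. Group B followed at 37.4 and 7.47 CPM, and group A at 26.3 and 4.70 CPM. Of the 50 genes with the largest differences in the choice, 26 were in A, 23 in B and 1 in C. The choice used those values; in tame foxes, which it did not use, the median difference was 1.94 in A, 1.81 in B and 1.74 in C on the log2(CPM + 1) scale. There edgeR called 92 of 93 genes of A, 55 of 55 of B and 50 of 52 of C higher in forebrain. Without the shifted libraries it called 92 of A, 55 of B and 51 of C.

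In some libraries nearly all genes of a group lay on one side of the line mean; the groups were formed on these same libraries, so this is a description. For group C, all 52 genes were above the line mean in aggressive forebrain ID529 (median deviation 0.773 on the log2 scale) and in tame forebrain ID482 (0.736), while 0 of 52 were above it in aggressive forebrain ID533 (-0.739). Group B was raised in all 55 genes in aggressive ID540 (0.536) and tame ID492 (0.521). It was low in tame ID483 (-0.736, 6 of 55 above), tame ID486 (-0.621, 0 of 55 above) and aggressive ID529 (-0.551, 2 of 55 above). Group A was lowest in tame ID541 (-0.824, 1 of 93 above) and aggressive ID530 (-0.530, 10 of 93 above). It was highest in tame ID483 (0.486), where 70 of 93 were above, so group A moved less as a whole there. High and low libraries came from both lines in all 3 groups, and ID529 and ID483 each stood high in 1 group and low in another.

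**Figure D4:**
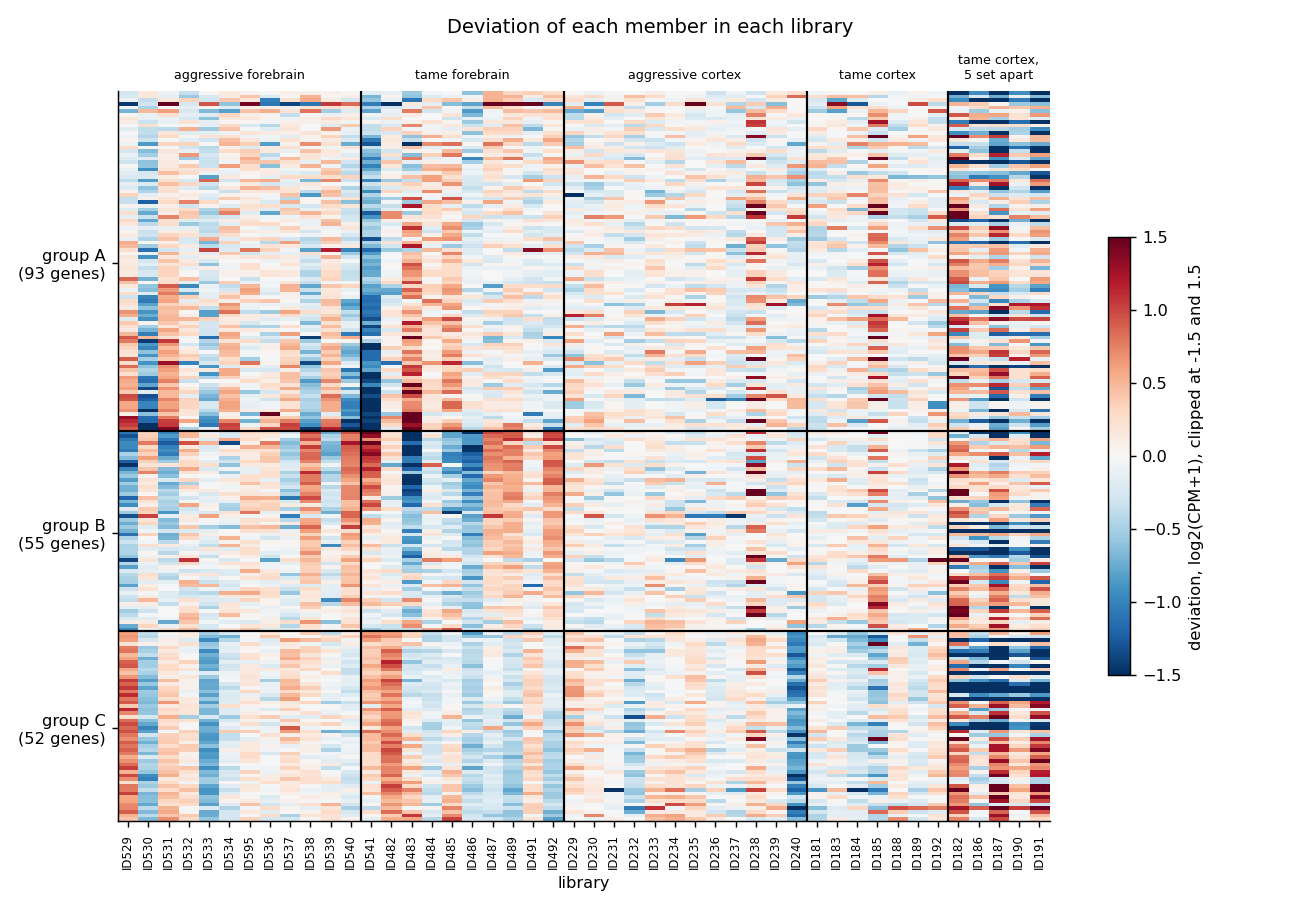
Deviation of each of the 200 genes (rows, in groups A, B and C) in each library (columns), on the log2(CPM + 1) scale and clipped at -1.5 and 1.5; forebrain deviations are from the line mean and cortex deviations from the median of the 19 unshifted cortex libraries. Group C is red throughout in ID529 and ID482 and blue in ID533 and in cortex ID240, while group B is blue in ID483 and ID486.

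Between lines, group B was the one with the most uneven signs in the forebrain. Its median log2 ratio, tame over aggressive, was -0.23, with 8 of 55 genes above 0, against 0.11 for A (67 of 93 above 0) and 0.06 for C (33 of 52 above 0). The genes of a group move together across foxes, so these counts are not independent observations. The choice took genes high in these same aggressive forebrain libraries, and the median choice value was 2.05 in B, 1.78 in A and 1.67 in C. The signs are therefore not independent of the choice, and its part in them was not tested. The mean log2(CPM + 1) of group B was 5.18 ± 0.483 in tame forebrain (SD, n = 10) and 5.43 ± 0.363 in aggressive forebrain (SD, n = 12). The libraries overlapped widely, from 4.35 in ID483 to 5.71 in the tame group and from 4.78 to 5.98 in the aggressive group. Without ID483 the tame mean was 5.27 ± 0.410 (SD, n = 9), and the median log2 ratio of B was -0.18. By edgeR's unadjusted p under 0.05, 1 gene of B was higher and 4 were lower (5.74% and 5.8% of all genes were). For A the numbers were 7 and 2, and for C 1 and 0. Without ID483 they were 1 and 2 for B, 0 and 2 for A and 1 and 0 for C (3.8% and 4.58% of all genes). The median of A was then 0.03, with 54 of 93 above 0.

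In the cortex, group C had a higher median correlation than groups A and B. Over the 12 aggressive cortex libraries the median pairwise correlation was 0.717 in C, 0.0914 in A and 0.112 in B. Over the 19 cortex libraries outside the shifted ones it was 0.609, 0.125 and 0.128, where all genes gave 0.018. The contrast was smaller over the 7 unshifted tame cortex libraries alone, at 0.510, 0.229 and 0.231. Over the 17 libraries without ID185 and ID238 it was 0.675, 0.0303 and 0.0129. Aggressive cortex ID240 was the clearest case, with 0 of 52 genes of C above the cortex median (median deviation -0.877). The mean log2 level of group C there was 4.12, the lowest of aggressive cortex, and ID238 was highest at 5.31. Genes of A and B had fewer counts in the cortex than genes of C, and the part of that depth in the lower correlations was not tested.

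A few cortex libraries carried a subset of the forebrain genes at raised levels. A gene was counted as raised when it lay more than 1 log2 unit above its median over the 19 cortex libraries outside the shifted ones. Aggressive ID238 had 29 of the 200 raised (14.5%; 1.36% of all genes), tame ID182 had 26 (13.0%; 1.57%) and tame ID185 had 20 (10%; 2.48%). Tame ID187 had 30 (15%), but there 7.32% of all genes were raised too, and ID191 had 19 (9.50%; 3.47%). The other 19 cortex libraries had at most 3 each. ID182 and ID238, from different lines, both raised 18 genes of the set (9%) and 75 of all genes (0.591%). ID182, ID185 and ID238 alike raised 9 genes of the set (4.5%) and 38 of all genes (0.299%). Those 9 were 23.7% of the 38. Each of these 3 libraries raised genes of all 3 covariation groups, and ID238 raised 15 of A, 12 of B and 2 of C.

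**Figure D5:**
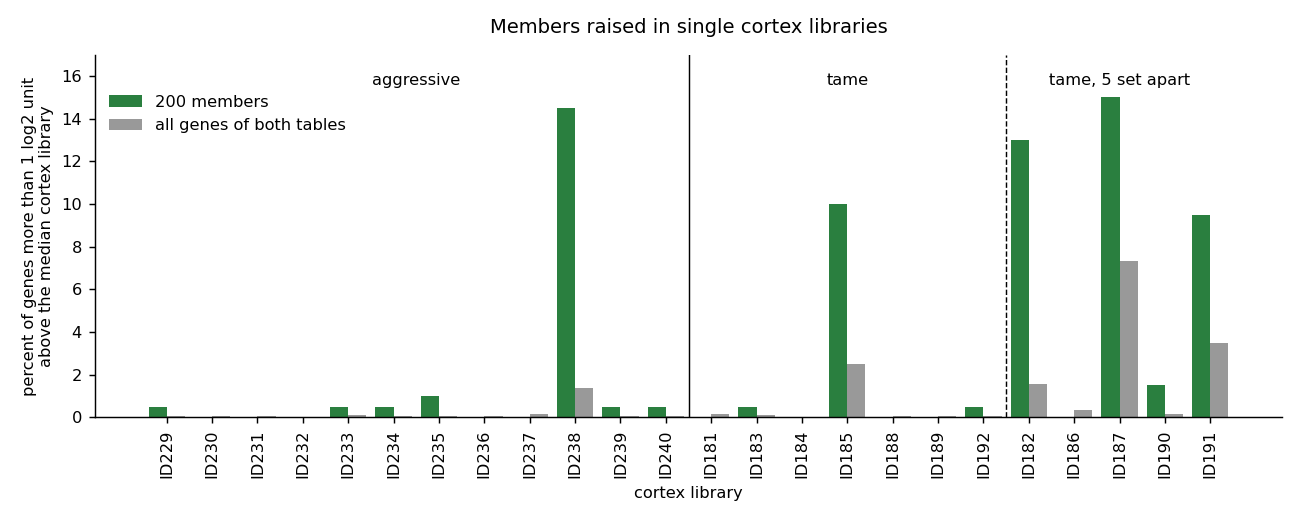
Percent of genes more than 1 log2 unit above the median of the 19 unshifted cortex libraries (vertical axis) in each cortex library, for the 200 forebrain-enriched genes (green) and for all genes of both tables (grey). ID238, ID182 and ID185 stand at 14.5%, 13.0% and 10% for the forebrain-enriched genes, with 1.36% to 2.48% of all genes.

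ENSCAFG00000010559 shows the pattern in 1 gene. Its tame cortex values were 2.39, 5.51 and 72.2 CPM (lowest, median and highest) and its aggressive cortex values 4.11, 5.15 and 75 CPM. The highest were ID182 and ID238, ID185 followed at 34.7 CPM, and the other cortex libraries were at 6.88 CPM or less. Those 3 libraries reached its forebrain range, which ran from 19.6 to 86.8 CPM. ENSCAFG00000007063, the most enriched gene, was high in ID182 and ID238 as well, but even there stayed below every forebrain library.

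ENSCAFG00000010292, with the widest spread within lines over all cortex libraries (SD 1.18), had another pattern. Its tame cortex values were 2.99, 40.0 and 63.4 CPM and its aggressive cortex values 22.7, 45.6 and 91.4 CPM, and the low end was the shifted library ID187. Without the shifted libraries its SD was 0.374, while that of ENSCAFG00000010559 was 1.03 against 1.17 with them. ENSCAFG00000010292 was also the gene with the highest positive loading on the first principal component of the set in the cortex, which held 44.6% of the variance, and ENSCAFG00000031120 followed, with a tame cortex low of 2.77 CPM in ID187 and a median of 34.8 CPM. That component included the shifted libraries, and they had its lowest scores, from -12.84 in ID187 to -2.228 in ID190. The unshifted tame libraries scored from 4.402 in ID189 to 5.911 in ID181, and the aggressive ones from -1.458 in ID233 to 1.572 in ID229. Deviations were taken from each line's mean over all its cortex libraries. Low scores of the shifted libraries thus set the other tame scores above 0, and scores cannot be compared between the lines. The component was not computed without the shifted libraries. ENSCAFG00000010148 and ENSCAFG00000014319 lay at the negative end; ENSCAFG00000010148 ran from 0 to 18.3 CPM in tame cortex, with its top in ID187.

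In the forebrain, the first principal component of the set held 44.9% of the variance within lines. ENSCAFG00000019165 and ENSCAFG00000018785 lay at its positive end, and ENSCAFG00000001515 and ENSCAFG00000016726 at its negative end. ENSCAFG00000001515 had 23.2, 169 and 487.9 CPM in tame forebrain (lowest, median and highest) and 119, 268 and 505 CPM in aggressive forebrain. Its lowest libraries were ID483 and ID529 and its highest ID541 and ID538, and the same 4 libraries bounded ENSCAFG00000016726 at 8.62 and 187.8 CPM in tame and 47.3 and 210 CPM in aggressive forebrain. The widest spreads within lines belonged to ENSCAFG00000019165 (SD 1.26) and ENSCAFG00000015072 (SD 1.25). ENSCAFG00000019165 ran over 1.93, 19.6 and 51.2 CPM in tame forebrain and 1.32, 19.4 and 33.5 CPM in aggressive forebrain, lowest in ID541 and ID530, the libraries where group A was lowest. ENSCAFG00000015072 instead had 1 very high library in each line, ID483 at 105 CPM and ID536 at 42.8 CPM, over medians of 4.97 and 4.09 CPM.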

How the data were processed

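The deposited values are estimated counts, 1 table for each region, with dog Ensembl identifiers per the file headers. The submitters' processing notes list CASAVA 1.8.2, FastQC, Trimmomatic, BWA, bedtools, edgeR and the build canFam3. Which program did which step is not given in the sources used here. Of the deposited counts, 4.36% (cortex) and 4.43% (forebrain) were not whole, and all were rounded for the tests. Libraries were grouped by the line and region in the sample titles. Of 13202 identifiers, 0 matched the fox RefSeq table (VulVul3), so 10 lists of cell type markers could not be used.

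Tests were edgeR 4.0.16 quasi-likelihood F-tests (robust, trimmed-mean scaling, filterByExpr with a minimum count of 10, R 4.3.3) fitted over all genes, with Benjamini-Hochberg adjustment and a threshold of 0.05. Log2 ratios (fold changes) and SEs are from edgeR, and CPM values use the plain column totals. Tables and regions coincide, so a region difference also spans separately deposited tables. Alternatives were DESeq2 1.42.0, limma-voom 3.58.1, other scaling, filters and offsets, and fits without single libraries. The test was checked on simulated counts. The 200 genes, lists and alternatives were chosen with earlier results of these data known.

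Genes named are those with the largest choice values, the last inside and first outside the boundary, the extremes of the tame region difference, the smallest p in each direction of each line comparison (up to 2), and the widest spread and highest loadings per region. ENSCAFG00000001298 was added after its values were seen.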

Additional observations from a re-analysis of the deposited data

Results flagged for a closer look

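Of 29 checks for a single library apart from the other 9 in tame forebrain, 4 passed Dixon's 95% critical value. Some of the genes checked were named for a wide spread or an extreme loading in these same libraries, on which the groups were also formed. The checks also share libraries, so a chance rate of about 1 check in 20 does not apply, and nothing is read from the number that passed. On the log2(CPM + 1) scale, ENSCAFG00000018785 was at 2.281 in ID541, where the next lowest library was at 5.062. ENSCAFG00000015072 was at 6.735 in ID483, and the next highest library was at 2.77. ENSCAFG00000016726 was at 3.266 in ID483, and the next lowest library was at 5.394. The median deviation of group A was -0.8243 in ID541, and the next lowest was -0.1473. All 4 came from ID541 or ID483.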

How the results depend on the processing

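Of the 200 genes, 197 were called higher in tame forebrain; this was 197 to 199 over fits that each left out 1 library and 197 to 200 over the other settings. Line calls in the forebrain were 0 in every fit that left out 1 library, and 1 with DESeq2 and 1 with weighted limma-voom. In the cortex the 1 call by edgeR ranged from 0 to 2 over fits that left out 1 library, the second gene being ENSCAFG00000003344. It was 14 with DESeq2 and 1 with weighted limma-voom, the same gene as by edgeR. By edgeR it was 0 without the 5 shifted libraries, without ID182, ID185 and ID238, and without all 7 of these. It was also 0 by edgeR for the set chosen by trimmed-mean CPM, which does not hold the called gene. The fits without ID182, ID185 and ID238 were added after the data were seen. Leaving out 1 aggressive library replaced 2 to 8 of the 200 genes, trimmed-mean CPM replaced 1, an offset of 0.5 CPM replaced 12 and an offset of 5 CPM replaced 50. With all cortex libraries, 5 genes were too scarce to be tested between lines, and all 200 were tested without the shifted ones.

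The labels state no pairing, and the replicate block used the last 2 digits of the identifiers, which 20 forebrain and cortex libraries of a line share. Their deviations over all genes correlated at -0.294 to 0.343, 14 of the 20 above 0.1, and 9 of the 20 forebrain libraries correlated best with their own number, so pairing is a hint of the data only. With the replicate block limma-voom called 200 genes higher in tame forebrain and 0 in the interaction, as without it.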
